A study of Xenopus laevis with 14 samples.

Results

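The genes described here encode splicing factors of *Xenopus laevis*. They are the 114 rows of the count table, of 26807 in all, whose symbol without its .L or .S ending begins with snrp, srsf and a digit, hnrnp, sf3a or sf3b, or prpf. The rule used symbols alone and no measured value, but it was chosen with earlier results of these data known. It gave 19 genes of small nuclear ribonucleoproteins (snRNPs), 24 genes of serine/arginine-rich (SR) proteins, 34 genes of heterogeneous nuclear ribonucleoproteins (hnRNPs), 17 SF3 genes and 20 PRPF genes. *X. laevis* is allotetraploid, and many genes are present as a pair of homeologs, 1 on an L and 1 on an S chromosome. The 114 rows stood for 62 symbols, 52 of them with both copies in the table.

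Messenger RNA was sequenced from the whole brains of tadpoles at stage 47, in 14 libraries that each pooled 6 brains. Of these, 4 libraries came from *ap3b2* CRISPants and 5 from *eef1a2* CRISPants, in which Cas9 with a guide RNA against *ap3b2* (a neuronal adaptor subunit for vesicle sorting) or *eef1a2* (a translation elongation factor of neurons and muscle) had been injected into the fertilised egg. The other 5 came from unedited controls that had received Cas9 with a scrambled guide. All embryos were of a wild-type background and came from 2 females. The CRISPants are F0 animals and mosaic, so that edited and unedited cells were mixed in each brain. The edits were designed as truncating loss-of-function changes. For *ap3b2* the paper names the S copy as the target, and it reports a frequent in-frame deletion beside the frameshifts. The labels number the libraries as replicates but do not tie a number to a female, clutch or day. P-values set a group difference against the spread between these pools.

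Introns are removed from pre-mRNA by the spliceosome, a machine assembled on each intron from the U1, U2, U4/U6 and U5 snRNPs. Each snRNP holds a small nuclear RNA wrapped by a ring of proteins, which are Sm proteins in all but U6. Each has further proteins of its own, and the SF3 and PRPF proteins belong to or act with these particles. SR proteins and hnRNPs bind the pre-mRNA itself: SR proteins mostly bind exons and favour their inclusion, and hnRNPs often repress it, and neurons use both to make brain-specific isoforms. In mammals many SR genes also control their own output through exons that expose the mRNA to decay. Counts per gene, as used here, sum over all isoforms of a gene and do not show which were spliced.

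Sequencing depth was similar across groups, with 36563581 to 41029675 counted read pairs per library in *ap3b2* CRISPants, 39016087 to 42568144 in *eef1a2* CRISPants and 39647384 to 46745977 in controls. Levels are given as CPM, counts scaled to the size of the library and then by TMM factors, and before the TMM step 1 CPM stood for 36.6 to 46.7 counts. The splicing factor genes took 1.34% to 1.497% of the counts in *ap3b2* CRISPants, 1.31% to 1.45% in *eef1a2* CRISPants and 1.21% to 1.28% in controls, and neither CRISPant group overlapped the controls.

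The guide targets gave no check on the labels, since an edit that truncates a protein need not alter its transcript count. *ap3b2.S* was at 61.6, 66.4, 65.7 and 80.2 CPM in *ap3b2* CRISPants and at 70.4, 72.3, 70.6, 71.6 and 75.0 CPM in controls (log2 fold change -0.07, adjusted p = 0.442, edgeR). *ap3b2.L*, which the paper does not name as a target, was lower in both CRISPant groups. Its log2 fold changes were -0.57 (adjusted p = 0.00691, edgeR) in *ap3b2* CRISPants and -0.58 (adjusted p = 0.0119) in *eef1a2* CRISPants. *eef1a2.S* was at 436.6, 387.1, 427.6, 395.7 and 367.5 CPM in *eef1a2* CRISPants and at 372.9, 391.9, 397.5, 443.8 and 417.0 CPM in controls (log2 fold change -0.01, adjusted p = 0.885, edgeR), and *eef1a2.L* did not pass either (-0.06, adjusted p = 0.564).

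The first question was whether splicing factor genes differed between each CRISPant group and the controls. In *ap3b2* CRISPants most snRNP and SR genes were higher than in controls by a modest amount, as were 14 of 33 hnRNP, 7 of 17 SF3 and 7 of 20 PRPF genes. With edgeR's quasi-likelihood test and Benjamini-Hochberg adjustment over the 20800 genes tested, 64 of the 113 members tested were higher and 5 were lower at a false discovery rate (FDR) under 0.05, where 20.0% of all genes tested were higher and 22.8% were lower. The 1 member not tested, *hnrnpul1.L*, was removed as too low. Without *ap3b2* CRISPant replicate 2, 42 members were higher, and 2470 genes in all against 4153 with it. In *eef1a2* CRISPants 55 of 113 members were higher and 5 were lower, where 18.8% of the 20682 genes tested were higher and 21.4% were lower. Both comparisons used the same control libraries. In bulk tissue, a change in a transcript per cell and a change in the share of cells that make it cannot be told apart.

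The changes were small. The median log2 fold change of the members was 0.25 in *ap3b2* CRISPants and 0.23 in *eef1a2* CRISPants, beside 0.03 over all genes tested in each. Past a fold change of 2, the members counted 0 higher and 0 lower in *ap3b2* CRISPants, where 0.0769% of all genes tested were higher and 5.11% lower. In *eef1a2* CRISPants 1 member was higher past that fold and 0 were lower, where the shares over all genes were 0.0870% and 5.24%. The 1 member was *sf3a1.S*, and without *eef1a2* CRISPant replicate 5 there were 0.

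All 4 libraries of *ap3b2* CRISPants lay above every control for 33 members and below every control for 3, where 11.6% and 14.5% of the genes tested did so. All 5 libraries of *eef1a2* CRISPants lay above every control for 13 members and below for 4, where the shares of all genes tested were 8.70% and 10.2%. Not all of these members were called. *prpf39.2.L* lay above every control in both groups and did not pass (adjusted p = 0.11 and 0.0575, edgeR). For called members outside these counts, 1 or more CRISPant libraries lay within the range of the controls.

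**Figure D1:**
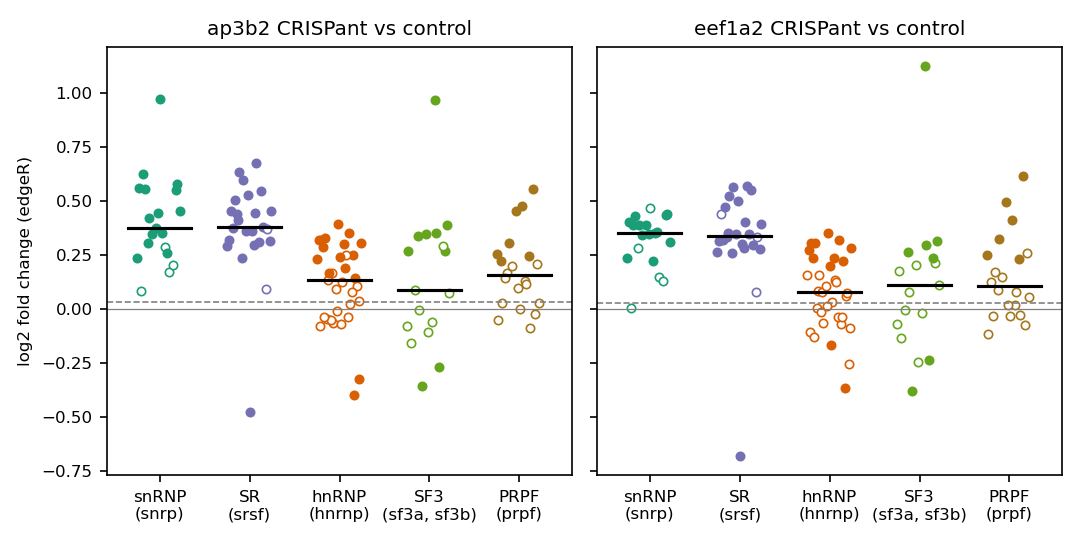
Log2 fold change of each splicing factor gene (points) against controls, by class, in *ap3b2* CRISPants (left) and *eef1a2* CRISPants (right); filled points passed an FDR of 0.05, black bars are class medians and the dashed line is the median of all genes tested. The snRNP medians (0.38 and 0.35) and SR medians (0.38 and 0.34) lie above the hnRNP medians (0.14 and 0.08).

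The snRNP genes shared a direction. All 19 had a positive log2 fold change in both comparisons by edgeR, the smallest being that of *snrpb2.L* in *eef1a2* CRISPants, which was slightly negative by DESeq2. In *ap3b2* CRISPants 15 passed the test as higher and 0 as lower, with a median log2 fold change of 0.38, and in *eef1a2* CRISPants 14 were higher and 0 lower, with a median of 0.35. The second count was 8 without *eef1a2* CRISPant replicate 5 and 9 without control replicate 2 or 3. Over all genes tested, 2629, 2586 and 2860 were higher in these refits, against 3878 with every library. Most of these were Sm genes, which encode the ring that all the major spliceosomal snRNPs except U6 share. Of 13 Sm genes, 12 were higher in *ap3b2* CRISPants (median 0.46) and 11 in *eef1a2* CRISPants (median 0.39). Of the 4 genes for the U2 proteins, *snrpa1* and *snrpb2*, 1 was higher in each comparison. Both U1 genes, *snrpa.S* and *snrpc.S*, were higher in each.

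*snrpg.L* (chromosome 3L, 129411826 to 129416247), a minor copy of the gene for SmG, had the largest log2 fold change of any member in *ap3b2* CRISPants. Its level was 2.82, 2.65, 2.23 and 1.95 CPM in *ap3b2* CRISPants and 1.99, 1.09, 2.02, 1.31 and 2.12 CPM in *eef1a2* CRISPants, against 0.865, 1.22, 1.23, 1.75 and 1.08 CPM in controls. Every *ap3b2* CRISPant library lay above every control, and the *eef1a2* CRISPants overlapped them. The log2 fold change was 0.97 (SE 0.208, adjusted p = 0.00486, edgeR) in *ap3b2* CRISPants and 0.47 (SE 0.233, adjusted p = 0.129) in *eef1a2* CRISPants, where it did not pass. With a trend in gene span removed, as described below, and a replicate block, the first call was lost (0.74, adjusted p = 0.0532).

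Its homeolog *snrpg.S* (chromosome 3S, 31620636 to 31630323) was measured at 56.3, 54.3, 39.9 and 38.2 CPM in *ap3b2* CRISPants, 39.1, 33.5, 46.3, 40.9 and 42.0 CPM in *eef1a2* CRISPants and 30.5, 29.1, 29.3, 34.3 and 30.1 CPM in controls. Control replicate 4 was the highest control and was above the lowest *eef1a2* CRISPant library alone. *snrpg.S* was higher by 0.62 on the log2 scale in *ap3b2* CRISPants (SE 0.118, adjusted p = 0.00336, edgeR) and by 0.39 in *eef1a2* CRISPants (SE 0.0848, adjusted p = 0.00859).

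*snrpb.L* (chromosome 9_10L, 36825202 to 36830677) encodes SmB, another protein of the ring. It was at 146, 140, 118 and 105 CPM in *ap3b2* CRISPants, 115, 95.8, 133, 118 and 130 CPM in *eef1a2* CRISPants and 86.2, 82.4, 80.3, 98.2 and 87.6 CPM in controls. All *ap3b2* CRISPant libraries were above the controls, and 1 *eef1a2* CRISPant library fell within their range. The log2 fold changes were 0.55 (SE 0.0971, adjusted p = 0.003) and 0.44 (SE 0.0878, adjusted p = 0.00791) in *ap3b2* and *eef1a2* CRISPants by edgeR.

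*snrpf.S* (chromosome 3S, 90679704 to 90683223), for SmF, had the same order of groups, with 62.6, 57.9, 48.5 and 46.7 CPM in *ap3b2* CRISPants, 47.2, 42.0, 59.1, 47.4 and 49.9 CPM in *eef1a2* CRISPants and 33.8, 32.4, 33.5, 43.2 and 37.5 CPM in controls. The highest control was again replicate 4. Its log2 fold changes were 0.58 (SE 0.107, adjusted p = 0.00316, edgeR) in *ap3b2* CRISPants and 0.44 (SE 0.101, adjusted p = 0.00974) in *eef1a2* CRISPants. At the other end of the class, *snrpb2.L*, for a U2 protein that binds its snRNA, had log2 fold changes of 0.08 (SE 0.1) and 0.00 (SE 0.11) and did not pass in either group (adjusted p = 0.535 and 0.976, edgeR).

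Most SR genes were higher as well. Of 24, 21 were higher and 1 was lower in *ap3b2* CRISPants, with a median log2 fold change of 0.38, and 20 were higher and 1 lower in *eef1a2* CRISPants, with a median of 0.34. Every symbol from *srsf1* to *srsf12* in the table had at least 1 copy higher in both groups, with the exception of *srsf5a*. *srsf10.S* did not pass in either group, with log2 fold changes of 0.09 and 0.08 (adjusted p = 0.32 and 0.311, edgeR).

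*srsf5.L* (chromosome 8L, 99708162 to 99713300) had the largest rise among the SR genes in both groups. Its level was 930, 869, 762 and 636 CPM in *ap3b2* CRISPants, 793, 642, 976, 519 and 802 CPM in *eef1a2* CRISPants and 501, 454, 406, 520 and 618 CPM in controls. The *ap3b2* CRISPants lay above all controls, whereas *eef1a2* CRISPant replicate 4 was inside their range. The log2 fold changes were 0.68 (SE 0.129, adjusted p = 0.00342, edgeR) in *ap3b2* CRISPants and 0.57 (SE 0.155, adjusted p = 0.0156) in *eef1a2* CRISPants. *srsf5.S* changed by 0.63 (SE 0.127, adjusted p = 0.00386) and 0.52 (SE 0.15, adjusted p = 0.0187), and it had the same *eef1a2* CRISPant library as its lowest. With the trend in span removed, the calls of *srsf5.L* and *srsf5.S* in *eef1a2* CRISPants were lost (0.38 and 0.34, adjusted p = 0.0532 and 0.076).

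*srsf7.L* (chromosome 5L, 41569896 to 41578311) encodes an SR protein that also takes part in mRNA export and 3′ end choice in mammals. It stood at 106, 94.5, 109 and 57.0 CPM in *ap3b2* CRISPants, 103, 81.2, 110, 64.8 and 91.2 CPM in *eef1a2* CRISPants and 69.0, 61.1, 69.9, 48.6 and 54.0 CPM in controls. Replicate 4 was the lowest library of each of the 3 groups and fell inside the range of the controls in both CRISPant groups. The log2 fold changes were 0.60 (SE 0.174, adjusted p = 0.0178, edgeR) in *ap3b2* CRISPants and 0.56 (SE 0.14, adjusted p = 0.0117) in *eef1a2* CRISPants. The call in *ap3b2* CRISPants was lost without their replicate 1 (log2 fold change 0.52, adjusted p = 0.0553) and without their replicate 3 (0.51, adjusted p = 0.0592), and with the trend in span removed (0.42, adjusted p = 0.0726).

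*srsf5a.S* (chromosome 8S, 2824045 to 2844616), a copy of a separate locus annotated *srsf5a*, was the exception to the direction of the class. It was at 28.4, 32.5, 30.3 and 32.9 CPM in *ap3b2* CRISPants, 30.6, 39.1, 23.5, 19.1 and 23.3 CPM in *eef1a2* CRISPants and 43.2, 45.3, 43.6, 42.8 and 41.2 CPM in controls. Every CRISPant library of both groups lay below every control. *srsf5a.S* fell by 0.48 on the log2 scale in *ap3b2* CRISPants (SE 0.0649, adjusted p = 0.00292, edgeR) and by 0.68 in *eef1a2* CRISPants (SE 0.157, adjusted p = 0.00983).

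**Figure D2:**
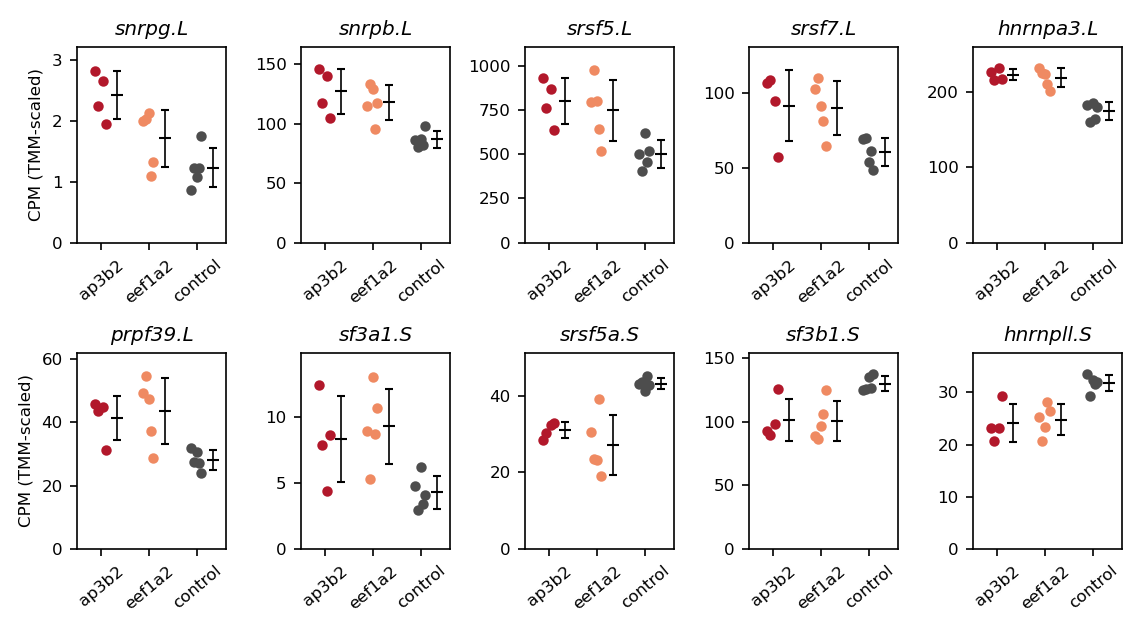
Level of 10 splicing factor genes (CPM after TMM scaling, axes from 0) in each library of *ap3b2* CRISPants (n = 4), *eef1a2* CRISPants (n = 5) and controls (n = 5); black marks are the mean and SD. In *srsf5a.S* every CRISPant library lies below every control, and in *hnrnpa3.L* every CRISPant library lies above every control.

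The hnRNP genes were divided between those that were higher and those that did not pass. Of 33 tested, 14 were higher and 2 lower in *ap3b2* CRISPants (median log2 fold change 0.14), and 10 were higher and 2 lower in *eef1a2* CRISPants (median 0.08). In *ap3b2* CRISPants 8 and 7 were higher without their replicate 1 or 2, and 9 without control replicate 1 or 2. Over all genes tested, the counts in these refits were 2427, 2470, 3176 and 2987, against 4153 with every library. *hnrnpdl.L*, with the highest CPM of the class, was higher in both groups, with log2 fold changes of 0.32 and 0.27 (adjusted p = 0.00675 and 0.0142, edgeR). *hnrnpk.L*, *hnrnpm.L* and *hnrnpu.L* did not pass, with log2 fold changes of 0.02, -0.01 and -0.05 in *ap3b2* CRISPants and -0.07, 0.01 and -0.01 in *eef1a2* CRISPants.

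The largest rises of the class were those of *hnrnpa2b1.L* and *hnrnpa3.L*. They belong to the A and B types of hnRNP, which bind splicing silencers and also carry mRNAs. Of the other genes of these types, *hnrnpa2b1.S* was higher in both groups. *hnrnpa0.L*, *hnrnpa0.S* and *hnrnpa1.S* were higher in *ap3b2* CRISPants alone. *hnrnpa1.L*, *hnrnpa3.S*, *hnrnpab.L* and *hnrnpab.S* did not pass in either. *hnrnpa3.L* (chromosome 9_10L, 77954010 to 77968824) was at 227, 232, 216 and 218 CPM in *ap3b2* CRISPants, 233, 211, 226, 202 and 224 CPM in *eef1a2* CRISPants and 183, 164, 160, 180 and 186 CPM in controls. Neither CRISPant group overlapped the controls. Its log2 fold changes were 0.35 (SE 0.0605, adjusted p = 0.00299, edgeR) in *ap3b2* CRISPants and 0.32 (SE 0.0592, adjusted p = 0.0078) in *eef1a2* CRISPants.

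*hnrnpa2b1.L* (chromosome 6L, 42796747 to 42805735) was at 205, 212, 222 and 162 CPM in *ap3b2* CRISPants, 194, 165, 214, 179 and 227 CPM in *eef1a2* CRISPants and 158, 152, 186, 135 and 133 CPM in controls. The groups overlapped in both comparisons. The gene had log2 fold changes of 0.39 (SE 0.114, adjusted p = 0.0179, edgeR) and 0.35 (SE 0.107, adjusted p = 0.024) in *ap3b2* and *eef1a2* CRISPants. Without *ap3b2* CRISPant replicate 2 or 3 the first call was lost (0.36 and 0.34, adjusted p = 0.0555 and 0.0576), and without control replicate 5 or *eef1a2* CRISPant replicate 5 the second was lost (0.31 and 0.29, adjusted p = 0.0528 and 0.0614). With the trend in span removed both were lost (0.23 and 0.21, adjusted p = 0.137 and 0.144).

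The hnRNP genes called lower, 3 in all, were S copies. *hnrnpll.S* (chromosome 5S, 33163210 to 33204886), for a relative of hnRNP L known in mammals for switching isoforms in lymphocytes, was at 23.3, 23.1, 20.7 and 29.4 CPM in *ap3b2* CRISPants, 25.2, 28.2, 20.7, 26.5 and 23.3 CPM in *eef1a2* CRISPants and 33.5, 31.7, 29.4, 32.0 and 32.4 CPM in controls. The *eef1a2* CRISPants lay below all controls, and *ap3b2* CRISPant replicate 4 met the lowest control. *hnrnpll.S* fell by 0.40 on the log2 scale in *ap3b2* CRISPants (SE 0.096, adjusted p = 0.00784, edgeR) and by 0.36 in *eef1a2* CRISPants (SE 0.0863, adjusted p = 0.0104). Its homeolog *hnrnpll.L* had -0.05 and 0.002 and did not pass in either.

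*hnrnpu.S* (chromosome 5S, 35865737 to 35881252), for a nuclear scaffold protein, was at 119, 131, 134 and 160.0 CPM in *ap3b2* CRISPants, 136, 155, 104, 164 and 157 CPM in *eef1a2* CRISPants and 181, 169, 177, 160.5 and 163 CPM in controls. It fell by 0.32 on the log2 scale there (SE 0.0808, adjusted p = 0.00915, edgeR), with every *ap3b2* CRISPant library below every control, and its change of -0.25 in *eef1a2* CRISPants (SE 0.111, adjusted p = 0.0875) did not pass. *hnrnpul1.S*, for a protein related to hnRNP U, was called in *eef1a2* CRISPants alone (-0.17, SE 0.0586, adjusted p = 0.0398, edgeR) and had -0.07 (SE 0.055) in *ap3b2* CRISPants. That call was lost on leaving out control replicate 1, 2, 3 or 5 or *eef1a2* CRISPant replicate 1, 3, 4 or 5 (adjusted p between 0.053 and 0.115).

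The SF3 genes, whose products form the part of the U2 snRNP that recognises the branch site, went both ways. Of 17, 7 were higher and 2 lower in *ap3b2* CRISPants (median log2 fold change 0.09), and 5 were higher and 2 lower in *eef1a2* CRISPants (median 0.11). In *ap3b2* CRISPants 3 and 4 were higher without their replicate 1 or 2, beside 2427 and 2470 of all genes tested, against 4153 with every library. In *eef1a2* CRISPants 2 were higher without their replicate 3 or 5 or control replicate 2 or 3, 3 without control replicate 1 and 8 without *eef1a2* CRISPant replicate 2. Over all genes tested, the counts in these refits were 2620, 2629, 2586, 2860, 2850 and 4687, against 3878 with every library. Both genes called lower in each comparison were copies of *sf3b1*, the large subunit that clamps the branch site.

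*sf3b1.S* (chromosome 9_10S, 82780277 to 82810748) was at 92.4, 98.0, 89.7 and 126 CPM in *ap3b2* CRISPants, 88.8, 106, 86.1, 125 and 96.4 CPM in *eef1a2* CRISPants and 125, 127, 126, 138 and 135 CPM in controls. Replicate 4 was the highest library of each of the 3 groups, and in *ap3b2* CRISPants it was the 1 library within the range of the controls, while the *eef1a2* CRISPants lay below all of them. *sf3b1.S* fell by 0.36 on the log2 scale in *ap3b2* CRISPants (SE 0.0908, adjusted p = 0.00957, edgeR) and by 0.38 in *eef1a2* CRISPants (SE 0.096, adjusted p = 0.0122).

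*sf3b1.L* (chromosome 9_10L, 94893098 to 94939438) was at 108, 98.0, 85.5 and 111.7 CPM in *ap3b2* CRISPants, 108, 103, 110, 104 and 91.9 CPM in *eef1a2* CRISPants and 125, 120, 112.0, 125 and 126 CPM in controls. No CRISPant library was above the lowest control. It fell by 0.27 (SE 0.0773, adjusted p = 0.0171, edgeR) and 0.24 (SE 0.0575, adjusted p = 0.011) on the log2 scale in *ap3b2* and *eef1a2* CRISPants. The first call was lost without *ap3b2* CRISPant replicate 2 (-0.25, adjusted p = 0.0553), and both were lost once the trend with gene span had been removed (-0.16 and -0.15, adjusted p = 0.116 and 0.0644).

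*sf3a1.S*, a copy of the gene for the largest SF3A subunit, stands in the table with no position in the gene annotation used. Its level was 12.43, 4.38, 7.92 and 8.65 CPM in *ap3b2* CRISPants, 8.93, 8.73, 5.27, 10.7 and 13.0 CPM in *eef1a2* CRISPants and 4.79, 3.37, 2.96, 4.05 and 6.19 CPM in controls. The groups overlapped, and libraries of 1 group differed widely. Its log2 fold changes were 0.97 (SE 0.278, adjusted p = 0.0169, edgeR) in *ap3b2* CRISPants and 1.12 (SE 0.251, adjusted p = 0.00915) in *eef1a2* CRISPants. The call in *ap3b2* CRISPants was lost without their replicate 1 (0.71, adjusted p = 0.0623).

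*sf3b6.S* (chromosome 5S, 133159725 to 133172535), for the small subunit next to the branch-point adenosine, was at 38.7, 37.6, 32.3 and 33.4 CPM in *ap3b2* CRISPants, 36.5, 28.7, 36.4, 34.4 and 33.6 CPM in *eef1a2* CRISPants and 27.1, 25.7, 25.7, 29.9 and 27.2 CPM in controls. The *ap3b2* CRISPants were above every control, as were all *eef1a2* CRISPants but replicate 2. The log2 fold changes were 0.39 (SE 0.078, adjusted p = 0.00384, edgeR) and 0.32 (SE 0.0767, adjusted p = 0.011) in *ap3b2* and *eef1a2* CRISPants. Those of the L copy, *sf3b6.L*, were -0.01 and 0.08 and did not pass.

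Among the PRPF genes, named after yeast pre-mRNA processing mutants, 7 of 20 were higher and 0 lower in *ap3b2* CRISPants (median log2 fold change 0.16), and 6 were higher and 0 lower in *eef1a2* CRISPants (median 0.11). The count in *ap3b2* CRISPants was 3, 2 and 4 without their replicate 1, 2 or 3, and 3 without control replicate 1 or 2. Over all genes tested, the counts in these refits were 2427, 2470, 3136, 3176 and 2987, against 4153 with every library. Of the 6 genes for proteins of the U4/U6.U5 tri-snRNP (*prpf3*, *prpf6*, *prpf8* and *prpf31*), 1 was higher in *ap3b2* CRISPants and 0 in *eef1a2* CRISPants, with medians of 0.01 and -0.03. In *eef1a2* CRISPants no tri-snRNP gene had an unadjusted p under 0.05 either.

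*prpf39.L*, for a protein whose yeast counterpart belongs to the U1 snRNP, was at 45.9, 44.9, 43.7 and 31.2 CPM in *ap3b2* CRISPants, 49.4, 37.3, 54.9, 28.7 and 47.3 CPM in *eef1a2* CRISPants and 32.0, 27.1, 27.4, 24.0 and 30.6 CPM in controls. Replicate 4 was once more the lowest of each group and lay within the range of the controls in both CRISPant groups. The log2 fold changes were 0.55 (SE 0.121, adjusted p = 0.0052, edgeR) in *ap3b2* CRISPants and 0.62 (SE 0.152, adjusted p = 0.0116) in *eef1a2* CRISPants. *prpf39.S* changed by 0.45 (SE 0.13, adjusted p = 0.0167) and 0.50 (SE 0.115, adjusted p = 0.01), and its first call was lost without *ap3b2* CRISPant replicate 2 or 3 (0.42 and 0.39, adjusted p = 0.0526 and 0.0556).

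*prpf38b.S* (chromosome 4S, 91403643 to 91415609), related to a protein that joins the spliceosome at activation, was at 31.2, 30.6, 30.9 and 23.4 CPM in *ap3b2* CRISPants, 28.8, 25.1, 32.1, 24.1 and 29.5 CPM in *eef1a2* CRISPants and 21.6, 19.7, 20.4, 21.2 and 21.6 CPM in controls. Neither CRISPant group overlapped the controls, and replicate 4 was the nearest to them in each. *prpf38b.S* had log2 fold changes of 0.47 (SE 0.0924, adjusted p = 0.00356, edgeR) in *ap3b2* CRISPants and 0.41 (SE 0.082, adjusted p = 0.00788) in *eef1a2* CRISPants. The L copy, *prpf38b.L*, had 0.03 and 0.05 and did not pass in either.

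The next question was whether snRNP genes differed from hnRNP and SR genes as a class. Over the 57 hnRNP and SR genes tested, the median log2 fold change was 0.28 in *ap3b2* CRISPants, which was 0.0913 below that of the snRNP genes. In *eef1a2* CRISPants it was 0.24, or 0.115 below. The pooled SD of this difference between libraries of a group was 0.0783, which describes single libraries and not the error of these medians. The median of the combined class lay between those of its parts, since the SR genes were level with the snRNP genes (0.38 against 0.38 for SR and snRNP in *ap3b2* CRISPants, and 0.34 against 0.35 in *eef1a2* CRISPants), and the hnRNP genes were lower than both. Members of a class are not replicates, and no test was made of these medians.

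The classes were also followed library by library, as the median log2 deviation of a class from the mean of the controls. For snRNP genes it was 0.58, 0.49, 0.38 and 0.20 in *ap3b2* CRISPants, 0.35, 0.12, 0.51, 0.37 and 0.42 in *eef1a2* CRISPants and -0.03, -0.05, -0.10, 0.18 and -0.04 in controls. Control replicate 4 stood above *eef1a2* CRISPant replicate 2 and just under *ap3b2* CRISPant replicate 4. Without control replicate 4, the snRNP median exceeded that of the hnRNP and SR genes by 0.18 in *ap3b2* CRISPants and by 0.159 in *eef1a2* CRISPants, and 16 of 19 snRNP genes were higher in each. Of all genes tested, 4516 of 20880 and 3981 of 20741 were higher in these refits. Without control replicate 3 the excess in *eef1a2* CRISPants was 0.076.

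For SR genes the deviation was 0.55, 0.47, 0.39 and 0.10 in *ap3b2* CRISPants, 0.46, 0.27, 0.54, 0.10 and 0.41 in *eef1a2* CRISPants and 0.04, -0.01, -0.02, -0.01 and -0.03 in controls. No CRISPant library overlapped the controls, and replicate 4 was by far the lowest of both CRISPant groups. For hnRNP genes it was 0.17, 0.19, 0.05 and 0.12 in *ap3b2* CRISPants, 0.06, -0.01, 0.10, 0.17 and 0.11 in *eef1a2* CRISPants and 0.02, -0.03, -0.07, 0.07 and -0.02 in controls, with overlap in both comparisons.

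The snRNP deviation exceeded the hnRNP deviation in all 9 CRISPant libraries, by 0.0851 to 0.406 in *ap3b2* CRISPants and by 0.13 to 0.412 in *eef1a2* CRISPants. In controls the difference ran between -0.0472 and 0.105. Control replicate 4, at 0.105, was above *ap3b2* CRISPant replicate 4, at 0.0851, so that these 2 groups overlapped. The *eef1a2* CRISPants lay above every control. The snRNP minus SR difference had both signs, from -0.0025 to 0.1 in *ap3b2* CRISPants, from -0.144 to 0.269 in *eef1a2* CRISPants and from -0.085 to 0.192 in controls. In each of the 3 groups replicate 4 had the highest value of that second difference. Against the hnRNP and SR genes combined, the snRNP difference was 0.0903 to 0.24 in *ap3b2* CRISPants and 0.0145 to 0.254 in *eef1a2* CRISPants. In controls it was -0.0498 to 0.134. Control replicate 4 had 0.134, above *ap3b2* CRISPant replicate 4 and *eef1a2* CRISPant replicates 1 and 2, so that the groups overlapped.

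**Figure D3:**
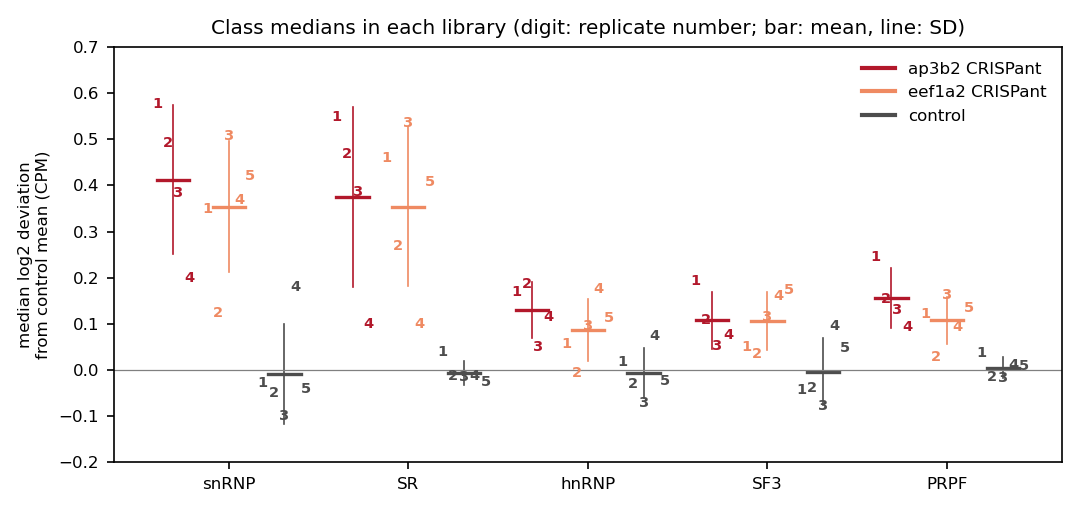
Median log2 deviation of each class from the mean of the controls in every library (digits are replicate numbers), with the mean (bar) and SD (line) of *ap3b2* CRISPants (n = 4), *eef1a2* CRISPants (n = 5) and controls (n = 5). For SR genes replicate 4 of both CRISPant groups lies near 0.10, and for snRNP genes control replicate 4 lies at 0.18.

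Both CRISPant groups were also compared with each other. With edgeR, 0 of 113 members and 0% of the 20584 genes tested (0 genes) were called, and DESeq2 called 0 as well. At an unadjusted p under 0.05 there were 0 members and 179 genes in all. The smallest p of a member was 0.0564, for *snrpg.L* (*ap3b2* over *eef1a2* CRISPants, log2 fold change 0.50, SE 0.231, adjusted p = 1). Log2 fold changes of members ran from -0.16 (*sf3a1.S*) to 0.50, with a median of 0.03, and 80 were positive and 33 negative. The snRNP median was 0.07, which was 0.0404 above that of the hnRNP and SR genes, and this difference was not tested.

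L and S copies of a gene are similar in sequence, and a read shared by both can be assigned to the wrong copy or dropped, so that values of single copies are less certain than those of single-copy genes. Of 51 member pairs with both copies tested, 23 had both copies higher in *ap3b2* CRISPants, 1 had both lower (*sf3b1*), 13 had 1 copy higher, 3 had 1 copy lower and 11 had neither called. In *eef1a2* CRISPants the counts were 18, 1, 14, 2 and 16. No pair had copies called in opposite directions. *snrpb*, *srsf5* and *prpf39* were pairs with both copies higher in each comparison.

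The L to S ratio was then compared with limma over all 7598 pairs tested. Among the 51 member pairs, 5 ratios changed in *ap3b2* CRISPants and 4 in *eef1a2* CRISPants at an FDR under 0.05, where 16.3% and 23.6% of all pairs did, a share of member pairs below that of all pairs in each. The largest shifts were in *srsf5a* and *sf3a1*.

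The ratio of *srsf5a.L* to *srsf5a.S* was 2.93, 2.30, 1.80 and 1.78 in *ap3b2* CRISPants, 2.47, 1.72, 3.46, 2.58 and 2.50 in *eef1a2* CRISPants and 1.31, 1.14, 0.896, 1.35 and 1.39 in controls, so that no CRISPant library overlapped the controls. It was higher by 0.84 on the log2 scale in *ap3b2* CRISPants (SE 0.201, adjusted p = 0.0317, limma) and by 1.05 in *eef1a2* CRISPants (SE 0.19, adjusted p = 0.00927). The L copy itself (chromosome 8L, 101776761 to 101791924) had log2 fold changes of 0.37 (adjusted p = 0.0513, edgeR) and 0.33 (adjusted p = 0.0754) and did not pass.

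The *sf3a1* ratio was 8.89, 24.2, 14.7 and 13.9 in *ap3b2* CRISPants, 12.7, 12.9, 19.8, 12.1 and 8.72 in *eef1a2* CRISPants and 24.1, 34.0, 37.3, 32.5 and 19.9 in controls. It changed by -0.99 (SE 0.285, adjusted p = 0.0389, limma) and -1.17 (SE 0.269, adjusted p = 0.0124) on the log2 scale in *ap3b2* and *eef1a2* CRISPants. *sf3a1.L*, the major copy, did not change by the test, with 111, 107, 117 and 121 CPM in *ap3b2* CRISPants, 114, 113, 105, 129 and 114 CPM in *eef1a2* CRISPants and 117, 116, 112, 133 and 124 CPM in controls. Among the other ratios that passed were those of *hnrnpu*, *prpf38b* and *sf3b6* in *ap3b2* CRISPants, with changes of 0.28, -0.44 and -0.39, and that of *hnrnpu* in *eef1a2* CRISPants, with a change of 0.25.

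**Figure D4:**
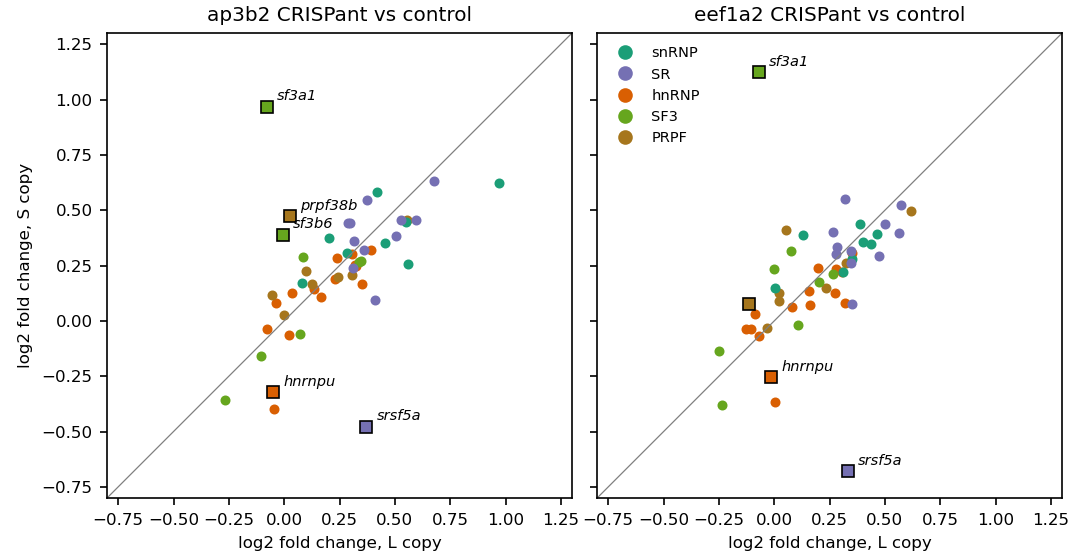
Log2 fold change of the S copy against that of the L copy for 51 pairs of splicing factor genes, in *ap3b2* CRISPants (left) and *eef1a2* CRISPants (right) against controls; squares are pairs whose L to S ratio changed at an FDR under 0.05 (limma), named where it changed by over 0.2 on the log2 scale, and the line marks equal change. *srsf5a* and *sf3a1* lie farthest from the line in both panels.

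Fold changes followed the span of a gene, from its start to its end in the annotation, over the whole table. Spearman's correlation across genes, which are not independent replicates, was -0.41 over 17453 genes in *ap3b2* CRISPants and -0.377 over 17357 genes in *eef1a2* CRISPants. The median span was 11804.5 bases for the 102 members with a position that were tested, against 23706 and 23695 bases over all genes in the 2 comparisons. Median spans were 6574 bases for snRNP genes, 9274 for SR genes and 12668 for hnRNP genes. In the shortest of 10 bins of span the median log2 fold change of all genes was 0.24 in *ap3b2* CRISPants and 0.22 in *eef1a2* CRISPants, and in the longest it was -0.22 and -0.19.

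Against the median of all genes in the same bin of span, the snRNP genes were higher by a median of 0.19 in *ap3b2* CRISPants and 0.17 in *eef1a2* CRISPants, and the SR genes by 0.24 and 0.23, with 18 and 17 of 19 snRNP genes and 18 of 20 SR genes in both above it. The hnRNP genes had -0.02 and -0.05, with 15 of 33 above it in both. When the trend was removed in each library, 35 members were higher in *ap3b2* CRISPants (10 snRNP, 13 SR, 4 hnRNP, 3 SF3 and 5 PRPF genes) and 7 lower, against 64 and 5 without the removal. Of all 20800 genes tested, 3890 were higher and 4472 lower after the removal. In *eef1a2* CRISPants 28 members were higher (7 snRNP, 11 SR, 2 hnRNP, 3 SF3 and 5 PRPF genes) and 11 were lower, 6 of them hnRNP genes, against 55 and 5. There 3736 of all 20682 genes tested were higher and 4364 lower after the removal. The 11 members without a position stayed uncorrected. Of these, *sf3a1.S*, *prpf38a.L*, *prpf39.L*, *prpf39.S*, *srsf3.L*, *srsf4.L*, *srsf4.S* and *srsf12.S* were called higher in both comparisons. They stand in the counts of 35 and 28 although no trend was removed from them. The members called higher in *ap3b2* CRISPants whose sign turned were *hnrnpa0.S* and *hnrnpa1.S*, with -0.01 and -0.06 after the removal.

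**Figure D5:**
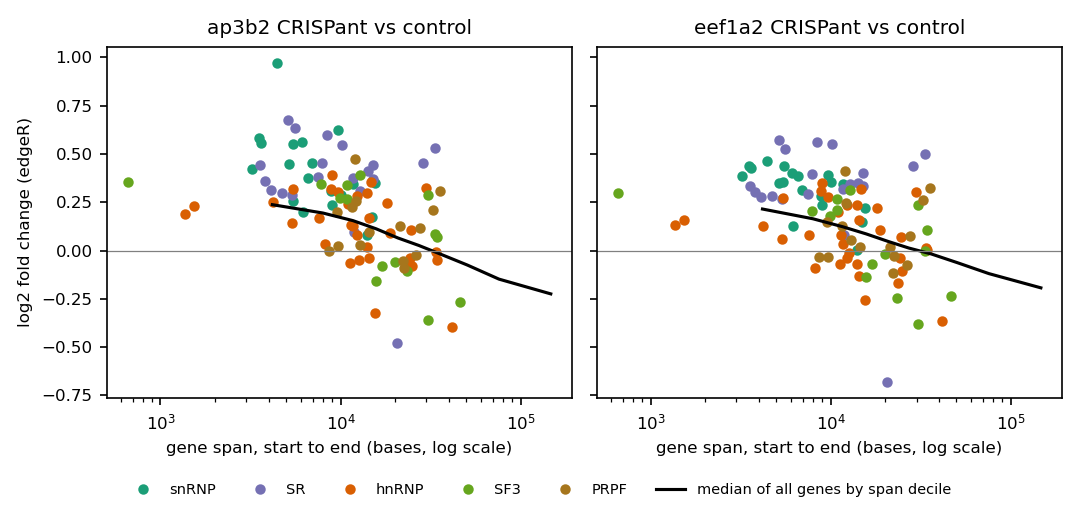
Log2 fold change of splicing factor genes against their span on a log axis, in *ap3b2* CRISPants (left) and *eef1a2* CRISPants (right) against controls; the black line joins the medians of all genes tested in 10 bins of span. The line falls to -0.22 (left) and -0.19 (right) at the longest genes, and most snRNP and SR genes lie above it.

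Other genes of the splicing pathway were taken from 4 lists by symbol, whose counts are to be read beside the shares of all genes tested, 20.0% higher and 22.8% lower in *ap3b2* CRISPants and 18.8% and 21.4% in *eef1a2* CRISPants. Of 76 genes for further core spliceosome proteins, 33 were higher (43.4%) and 6 lower (7.89%) in *ap3b2* CRISPants, with a median log2 fold change of 0.20, and 26 were higher (34.2%) and 5 lower (6.58%) in *eef1a2* CRISPants, with a median of 0.16. *snrnp70.L*, for the U1-70K protein, was higher by 0.70 (SE 0.148, adjusted p = 0.00451, edgeR) and 0.64 (SE 0.147, adjusted p = 0.00965) on the log2 scale in *ap3b2* and *eef1a2* CRISPants. *lsm7.S*, for a protein of the ring on U6, was higher by 0.63 (adjusted p = 0.00302) and 0.45 (adjusted p = 0.0104). *snrnp70.S* had 0.59 and 0.57 (adjusted p = 0.0112 and 0.0141). *ddx23.S* and *dhx15.S*, for helicases of spliceosome activation and disassembly, were lower, with -0.44 in both genes in *ap3b2* CRISPants and -0.47 and -0.51 in *eef1a2* CRISPants. *ddx23.L* passed in *ap3b2* CRISPants (-0.53, adjusted p = 0.0124) and not in *eef1a2* CRISPants (-0.47, adjusted p = 0.0533).

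Of 28 tested genes for the assembly and import of snRNPs, 11 were higher (39.3%) and 1 lower in *ap3b2* CRISPants, and 10 were higher (35.7%) and 2 lower in *eef1a2* CRISPants. *wdr77.L*, a partner of the methyltransferase that modifies Sm proteins, had log2 fold changes of 1.00 (SE 0.287, adjusted p = 0.0168, edgeR) and 0.86 (SE 0.261, adjusted p = 0.0236) in *ap3b2* and *eef1a2* CRISPants. *clns1a.S*, for an Sm chaperone, had 0.57 (adjusted p = 0.0106) and 0.41 (adjusted p = 0.0208), and *gemin2.S*, for a core protein of the SMN complex that loads the ring, had 0.42 (adjusted p = 0.00462) and 0.46 (adjusted p = 0.0078). *gemin4.L*, of the same complex, went the other way, with -0.61 (adjusted p = 0.0132) and -0.56 (adjusted p = 0.0269), and *gemin5.L*, whose product reads snRNAs, passed in *eef1a2* CRISPants alone (-0.28, adjusted p = 0.066, and -0.34, adjusted p = 0.0219).

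Of 39 genes for SR-related factors and SR kinases, 23 were higher (59.0%) and 2 lower in *ap3b2* CRISPants, and 21 were higher (53.8%) and 2 lower in *eef1a2* CRISPants. The kinases that phosphorylate SR proteins were split. *clk1.L* was higher by 0.77 (SE 0.172, adjusted p = 0.00579, edgeR) and 0.83 (SE 0.193, adjusted p = 0.0101) and *clk2.L* by 0.75 (adjusted p = 0.00791) and 0.62 (adjusted p = 0.0215) on the log2 scale in *ap3b2* and *eef1a2* CRISPants, whereas *srpk1.S* had -0.34 (adjusted p = 0.0104) and -0.42 (adjusted p = 0.0152). *thrap3.S*, for an SR-related factor, had -0.42 (adjusted p = 0.014) and -0.45 (adjusted p = 0.0123).

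The list of tissue-specific splicing regulators had shares nearer to those of all genes. Of 71 tested, 15 were higher (21.1%) and 23 lower (32.4%) in *ap3b2* CRISPants, and 13 were higher (18.3%) and 20 lower (28.2%) in *eef1a2* CRISPants, with 5 and 4 lower past a fold change of 2 in *ap3b2* and *eef1a2* CRISPants. The median span of these genes was 33401.5 bases, against 14779.5 for the core spliceosome list, and the part of span was not tested. Muscleblind genes, whose products compete with CELF proteins for target exons, had the largest falls. *mbnl1.L* had -1.25 (SE 0.215, adjusted p = 0.00299, edgeR) and -1.25 (SE 0.267, adjusted p = 0.00852), and *mbnl3.S* had -1.54 (SE 0.274, adjusted p = 0.003) and -1.21 (SE 0.297, adjusted p = 0.0114), in *ap3b2* and *eef1a2* CRISPants. *mbnl1.S* had -1.39 and -1.495 (adjusted p = 0.00299 and 0.0078). *celf1.S* was higher by 0.33 and 0.38 (adjusted p = 0.00878 and 0.00796). *elavl1.L* and *fus.L*, for RNA-binding proteins made in most tissues, were higher by 0.46 and 0.45 in *ap3b2* CRISPants and by 0.48 and 0.31 in *eef1a2* CRISPants.

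Markers of cell types were compared in the same way, beside the shares of all genes given above. The summed level of 10 neuron markers was 4447 to 4678 CPM in *ap3b2* CRISPants, 4246 to 4683 CPM in *eef1a2* CRISPants and 3921 to 4482 CPM in controls, with 3 higher and 2 lower in *ap3b2* CRISPants and 2 higher and 1 lower in *eef1a2* CRISPants. Over 9 neural progenitor markers it was 1302 to 1440 CPM in *ap3b2* CRISPants, 1218 to 1538 CPM in *eef1a2* CRISPants and 1059 to 1286 CPM in controls, with 3 higher and 1 lower in *ap3b2* CRISPants and 4 higher and 1 lower in *eef1a2* CRISPants. Endothelial markers ran the other way, with sums over 10 genes of 20.3 to 38.3 CPM in *ap3b2* CRISPants, 19.9 to 33.7 CPM in *eef1a2* CRISPants and 38.6 to 50.4 CPM in controls, and 6 of 9 tested were lower in *ap3b2* CRISPants and 3 of 7 in *eef1a2* CRISPants. Oligodendrocyte markers summed to 393.8 to 559.9 CPM in *ap3b2* CRISPants, 463.7 to 616.0 CPM in *eef1a2* CRISPants and 437.2 to 714.3 CPM in controls, with 1 of 10 lower in each comparison. Epidermal markers, which a brain should lack, summed to 3.53 to 38.5 CPM in *ap3b2* CRISPants, 5.19 to 32.2 CPM in *eef1a2* CRISPants and 2.91 to 7.68 CPM in controls, and both of those tested were higher in each comparison. Erythroid markers summed to 777.4 to 1115 CPM in *ap3b2* CRISPants, 564.2 to 1244 CPM in *eef1a2* CRISPants and 622.4 to 807.6 CPM in controls, with 2 of 4 tested higher in *ap3b2* CRISPants and 1 of 4 in *eef1a2* CRISPants. Proliferation markers summed to 248.6 to 307.2 CPM in *ap3b2* CRISPants, 221.7 to 295.0 CPM in *eef1a2* CRISPants and 217.5 to 265.4 CPM in controls, with 3 of 9 higher in *ap3b2* CRISPants and 1 of 9 in *eef1a2* CRISPants. Of the muscle markers (3 tested) and microglia markers (2 tested), 0 were called by edgeR in either comparison, and 1 muscle marker had an unadjusted p under 0.05, in *eef1a2* CRISPants. No marker was at 0 in any group, and the part of cell composition in the differences of splicing factor genes was not tested.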

How the data were processed

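Counts of read pairs per gene, not normalized, were deposited by the authors. Per their methods, trimmed reads were mapped by STAR on the v10.1 assembly of *X. laevis* and assigned by featureCounts (reverse stranded, each pair once). Versions are not given in the sources used here. The deposited log2 CPM table was not used here.

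The members and all gene lists were chosen with earlier results of these data known. Groups and replicate numbers came from the labels. For each pair of groups in R 4.3.3, a gene was dropped if 4 or more of their libraries had a CPM of at most 1. After TMM scaling, edgeR 4.0.16 was fitted with group as the sole term and tested by quasi-likelihood. P-values were adjusted (Benjamini-Hochberg) over all genes tested. SEs came from the F statistic. Log2 ratios of L to S copies (log2 CPM, prior count 2) were tested with limma 3.58.1, a test added after values had been seen. Both were tested on simulated data.

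Genes are named if past both thresholds (FDR 0.05, 2-fold), if among the 2 largest rises or falls of a class or list that passed, or, chosen after their values were seen, as examples of members that did not pass or of a homeolog. Class medians per library used the log2 CPM of tested members. Positions and spans came from the RefSeq gene table of the same assembly, which matched 103 of 114 members. The alternatives were DESeq2 1.42.0, library size alone, upper-quartile scaling, no filter, 1 fit of all 14 libraries, a replicate block, replicates 1 to 3 alone, removal of the trend with span (loess, span 0.3) without and with the block, and each library left out in turn. The ratio of 1 pair that passed is not reported here.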

Additional observations from a re-analysis of the deposited data

Results flagged for a closer look

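Within-group spread was examined for the 20 named members and the 5 class medians, 75 groups in all, and in 5 of them 1 library stood far from the others. About 1 group in 20 does so by chance. In *ap3b2* CRISPants, replicate 4 was below the other 3 libraries for *prpf38b.S* (23.4 CPM) and *prpf39.L* (31.2 CPM). In controls, replicate 4 was above the other 4 libraries for *snrpg.S* (34.3 CPM) and for the snRNP class median (a log2 deviation of 0.179). Control replicate 1 had the highest SR class median of the controls (0.0387), a small deviation beside those of the CRISPants.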

How the results depend on the processing

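DESeq2 kept 69 of the 69 members called in *ap3b2* CRISPants and 60 of 60 in *eef1a2* CRISPants. Libraries that share a replicate number were not alike throughout. Correlations of their deviations ran from -0.283 to 0.61, the highest between *ap3b2* and *eef1a2* CRISPant replicate 4. A replicate block kept 50 of the 69 calls in *ap3b2* CRISPants and 59 of the 60 in *eef1a2* CRISPants. Over all genes tested, 2426 were higher and 3497 lower in *ap3b2* CRISPants with it, against 4153 and 4732 without it. In *eef1a2* CRISPants the counts were 3774 and 4487 with it, against 3878 and 4425. With the block, 1 member was higher past a fold change of 2 in *ap3b2* CRISPants. With replicates 1 to 3 alone, 17 snRNP, 22 SR, 14 hnRNP, 8 SF3 and 9 PRPF genes were higher in *ap3b2* CRISPants. At the same FDR 10 members were lower, where 5743 of all 21083 genes tested were higher and 6383 lower. In that refit 2 members were higher past a fold change of 2. The snRNP median was 0.239 above that of the hnRNP and SR genes. In *eef1a2* CRISPants 32 members were higher with these replicates (6 snRNP, 16 SR, 5 hnRNP, 1 SF3 and 4 PRPF genes). Of the 60 calls, 29 were kept, and 2012 of all 21105 genes tested were higher, against 3878 with every library. The class difference there was 0.197. The calls of *hnrnpa2b1.L*, *hnrnpll.S*, *hnrnpul1.S*, *prpf39.S*, *sf3b1.L*, *sf3b6.S*, *snrpg.S* and *srsf5a.S* were lost in *eef1a2* CRISPants. With the trend in span removed where a position was known, 35 were higher in *ap3b2* CRISPants, and 28 were higher and 11 lower in *eef1a2* CRISPants. With the block as well, these were 31 (1 past the fold), 31 and 10. Over all genes tested the same counts were 3890, 3736 and 4364 with the trend removed. With the block as well they were 2552, 3552 and 4373. In this refit with both, 4 snRNP, 15 SR, 4 hnRNP, 3 SF3 and 5 PRPF genes were higher in *ap3b2* CRISPants. In *eef1a2* CRISPants 7 snRNP, 12 SR, 3 hnRNP, 3 SF3 and 6 PRPF genes were higher. Library size alone kept 54 of the 69 calls in *ap3b2* CRISPants and 46 of the 60 in *eef1a2* CRISPants. Over all genes tested, it gave 2573 higher and 5412 lower in *ap3b2* CRISPants, and 2322 higher in *eef1a2* CRISPants. With library size alone 8 members were lower in *eef1a2* CRISPants, where 5080 of all 20682 genes tested were lower. Leaving out 1 library at a time gave 42 (without *ap3b2* CRISPant replicate 2) to 69 higher members in *ap3b2* CRISPants, 0 to 1 of them past the fold, and class differences of 0.0787 to 0.18. In *eef1a2* CRISPants it gave 39 to 63 higher, 0 (without *eef1a2* CRISPant replicate 5) to 1 past the fold, and class differences of 0.076 to 0.159. In the refits with the fewest and most higher members, 2470 and 5568 of all genes were higher in *ap3b2* CRISPants. The same counts were 2629 and 4687 in *eef1a2* CRISPants. The causes were not tested. Over the refits of the named members, 694 gave the same call, 41 lost it and 5 gained one, and none turned its direction. Between CRISPant groups no member was called in any refit. Depth limits *snrpg.L* and *sf3a1.S* most, which are low, and the pooled brains hide differences between animals.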
